A study of Bos taurus with 48 samples.

Results

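The comparison of day 7 after calving with day −7 before it rests on 12 of the 48 two-colour Agilent bovine arrays of the study, which are the arrays whose 2 channels hold liver RNA of the same treatment on different days. The other 36 arrays compare treatments within a day and carry no day difference once the treatments are pooled. Liver was taken by biopsy from grazing dairy cows a week before calving (−7 d), a week after it (7 d) and again at 28 d, from the same cows each time. The cows had been brought to a body condition score (BCS, a 10-point scale) of 5 or 4 and were fed 125 or 75% of their estimated requirements, by pasture allowance, for the 3 weeks before calving, which gives the treatments B5F125, B5F75, B4F125 and B4F75. Feeding after calving is not part of the treatment names, and all cows calved between the days compared. The 12 arrays hold 4 cow pairs, 1 per treatment, and so 8 of the 32 cows. Each pair has 3 arrays (7 against −7 d, 28 against −7 d and 28 against 7 d), and in each pair 1 cow was always labelled with Cy5 and the other with Cy3. The labels describe the animals as American Holstein, the methods as mixed breed, and age and breed are not given for single cows.

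Calving moves the cow within days from late pregnancy to milk synthesis, with feed intake below the energy secreted in milk. The liver is known to respond with glucose synthesis from propionate, lactate and amino acids, with oxidation and esterification of fatty acids mobilised from adipose tissue, and with an acute phase response, in which plasma proteins such as haptoglobin are secreted in bulk. At the same time the growth hormone receptor of liver and its product IGF1 are known to be low in early lactation. Positive acute phase proteins are those that increase in inflammation, and negative ones, such as albumin, those that decrease.

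For each gene the 3 days, a dye term and the cow pair as a random block were fitted to the log2 ratios with limma, and log2 FC below means day 7 minus day −7 with the treatments pooled. The value of a single cow pair is its array of 7 against −7 d minus the mean of its 3 arrays, which removes the dye and the difference between the cows. In all, 13410 genes were measured on at least 9 of the 12 arrays. Spots excluded by the authors made up 11.6 to 20.8% of the spots per array. The pairs differed in spread, with an SD over genes of 0.47 in B5F125, 0.50 in B5F75, 0.39 in B4F125 and 0.68 in B4F75, and across 11602 genes the values of different pairs correlated at only −0.15 to 0.15. The average RNA integrity number in the labels was 7.77 ± 0.43 at 7 d and 8.18 ± 0.39 at −7 d over all cows of the study, and its part in the day values was not tested. Of the hepatocyte markers, 19 of 20 were measured, which include albumin, transthyretin and apolipoprotein B, but a ratio holds no level, so their abundance could not be read. In biopsies of whole liver, fewer cells of a type and less RNA per cell cannot be told apart.

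The direction of the ratios was not settled here. The study gives signed fold changes between feeding levels within a day, which were not set against the deposited ratios. No source used here names the numerator. The labels of these 12 arrays give the Cy3 sample, a hyphen and then the Cy5 sample, and some others of the study give Cy5 first. They do not say whether the hyphen means a subtraction. Values are printed as Cy5 minus Cy3, so that a positive log2 FC means higher at 7 d than at −7 d if that reading holds. Of 12 genes known to change in liver at calving, 10 lay on the side opposite to what is known, and with every sign turned 10 lay on the known side. Among 8 genes known to be higher after calving, 6 were negative, and the 4 genes known to be lower were all positive. All 4 of the 12 that passed the test (HP, LBP, PC and IGF1) were on the opposite side. The mean ratio per gene over these 12 arrays and over the other 36 correlated at 0.40 across 10808 genes. Genes are therefore described by side, as negative with haptoglobin or positive with IGF1, and none is said to have risen or fallen with calving.

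**Figure D1:**
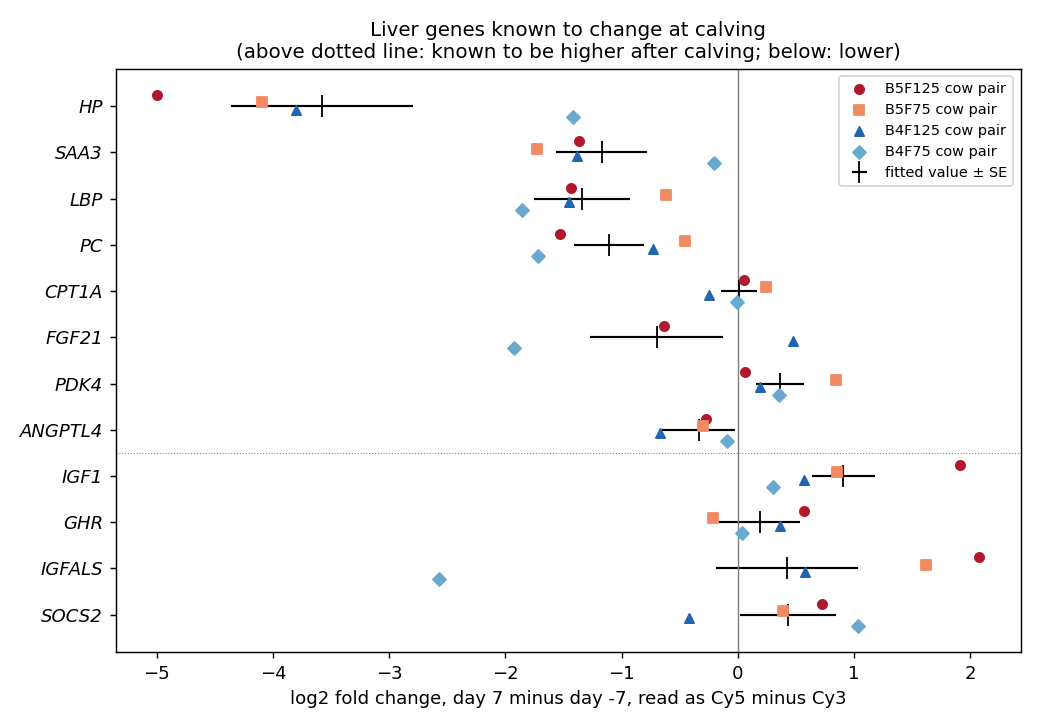
Fitted log2 FC (day 7 minus day −7, Cy5 minus Cy3; black bar with SE) and the value of each of the 4 cow pairs for 12 genes known to change in liver at calving. HP, SAA3, LBP, PC and ANGPTL4 were negative in all 4 pairs, IGF1 and PDK4 were positive in all 4, and the pairs of IGFALS ran from −2.57 to 2.08.

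DEG were taken at the thresholds of the methods, a fold change of 1.5 or more on either side together with an unadjusted p no higher than 0.01. There were 135 DEG, or 1.01% of the genes tested, of which 77 were negative (0.574%) and 58 positive (0.433%). With the sign turned these numbers change places. An unadjusted p under 0.05 was reached by 669 genes (4.99%), which is about the share that this threshold passes by chance alone. The 1.01% of DEG is likewise about the share that a p threshold of 0.01 passes by chance, before the fold threshold. With limma 0 genes had an adjusted p under 0.05, the smallest being 0.406. The adjusted p beside each gene below is that of limma over all genes tested, so none of the DEG passed the adjustment in this fit. A fit with the cow pair as a fixed block called 136 genes, 97 of them shared. The size of the fold change in the DEG had a median of 1.91 and ran from 1.52 to 11.95. Of the 101 DEG with a value in all 4 pairs, 97 had the same sign in each pair, against 1465 of 11602 genes in all (12.6%). The call itself uses these pairs, so that count describes the DEG and is no test of them.

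**Figure D2:**
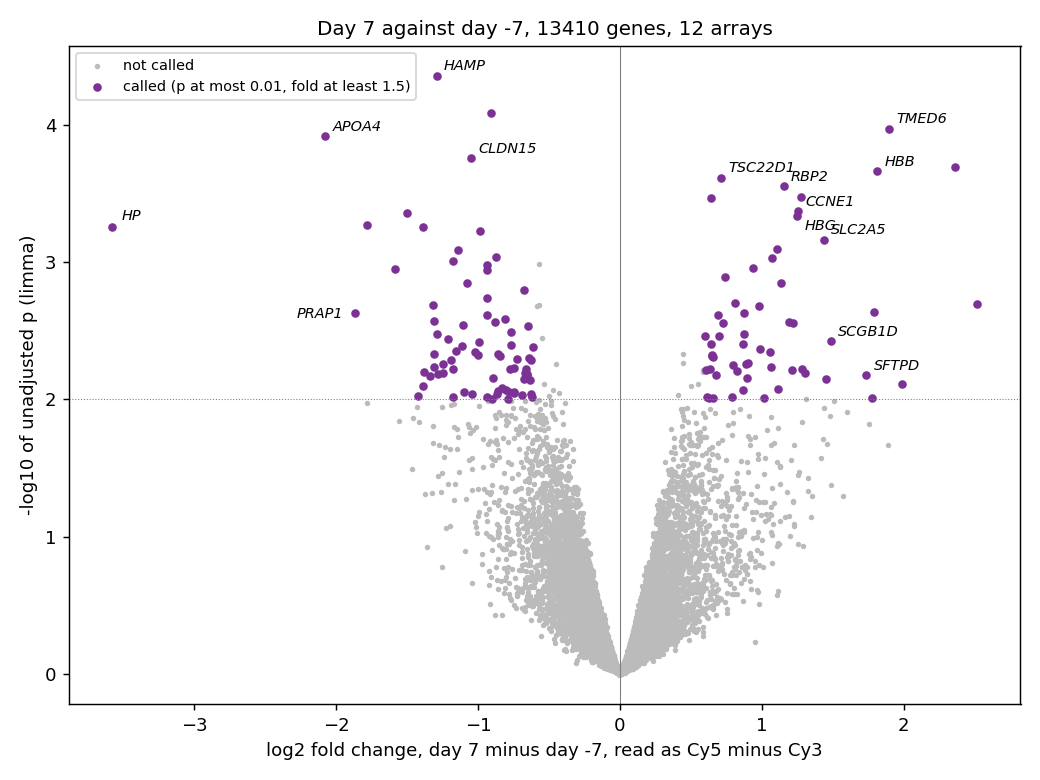
Log2 FC (day 7 minus day −7, Cy5 minus Cy3) against −log10 of the unadjusted p from limma for 13410 genes; purple points are the 135 DEG and the dotted line marks the p threshold. HP stands apart on the negative side at −3.58, and TMED6 (1.90) and HBB (1.82) are among the positive genes with the smallest p.

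Haptoglobin (HP), the haemoglobin-binding acute phase protein of cattle, had the largest fold change of all DEG. Its log2 FC was −5.00 in the B5F125 pair, −4.10 in B5F75, −3.80 in B4F125 and −1.42 in B4F75. The fitted value was −3.58 (SE 0.78), an 11.95-fold difference, with all 3 of its probes negative. The pairs thus agreed in sign, although the array of the B4F75 pair that holds 7 and −7 d directly read 0.50, before the mean of its pair was subtracted. Such an array still holds the difference between the 2 cows and between the dyes, and in 17 of the 40 named DEG at least 1 of these 4 direct arrays read on the other side of 0 from the fitted value, 11 of them in B5F75. LBP, which carries bacterial lipopolysaccharide to its receptor, was also a DEG, with −1.44 in B5F125, −0.62 in B5F75, −1.45 in B4F125 and −1.86 in B4F75 (log2 FC −1.34, SE 0.42, adjusted p = 0.81). Without the B5F125, B4F125 or B4F75 pair LBP was no longer called (−1.31, −1.30 and −1.17). SAA3, a serum amyloid A, was −1.17 (SE 0.39, adjusted p = 0.883) and just missed the p threshold.

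Over the positive acute phase proteins, 2 of 23 genes tested were DEG (HP and LBP), beside 1.01% of all genes. Of the 23, 16 were negative, beside 7151 of 13410 genes in all. The median log2 FC was −0.14, against −0.02 over all genes. In 8 of the 22 with 4 pairs (HP, SAA3, SAA4, LBP, ORM1, ITIH3, ITIH4 and LCN2) every pair was negative, beside 6.68% of all genes, and in 1 (A2M) every pair was positive, beside 5.95%. A2M, a broad protease inhibitor, stood on the other side, with log2 FC of 1.43 in B5F125, 0.92 in B5F75, 0.75 in B4F125 and 1.05 in B4F75, but was not a DEG (1.04, SE 0.38, adjusted p = 0.888). C3, FGB and HPX differed in sign among the pairs. Single members named here and in the lists below beyond the rule in the methods were chosen after their values were seen. Counts of DEG and of signs in the lists below stand beside the same shares over all genes.

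Of the 8 negative acute phase proteins, 6 were positive, with a median of 0.30, and APOA1, which forms the bulk of high-density lipoprotein protein, was the only DEG. It was negative, with log2 FC of −0.36 in B5F125, −0.89 in B5F75, −1.44 in B4F125 and −0.70 in B4F75 (−0.84, SE 0.25, adjusted p = 0.801). APOA1 was not called without B5F75 (−0.83), B4F125 (−0.65) or B4F75 (−0.89). Albumin (ALB) was 0.37 (SE 0.31), with 1.31 in the B5F75 pair and −0.17 in B4F75. Transthyretin (TTR), a carrier of thyroid hormone and retinol-binding protein, was positive in all 4 pairs, between 0.15 and 0.61, with a fitted log2 FC of 0.38 (SE 0.14, adjusted p = 0.896), under the fold threshold.

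Hepcidin (HAMP), the liver hormone that blocks iron export from cells, had the smallest p of all genes. Its log2 FC was −1.03 in B5F125, −0.96 in B5F75, −1.41 in B4F125 and −1.77 in B4F75. The fitted value was −1.29 (SE 0.21, adjusted p = 0.406 with limma), and HAMP was called without each of the 4 pairs in turn. Of 14 iron handling genes, HAMP was the only DEG, beside 1.01% of all genes. Of these 14, 9 were negative (median −0.11), beside 7151 of 13410 genes in all. Without B4F75 3 were called, beside 212 of 13347 genes in all. These were HAMP, transferrin (TF, 0.76) and BMP6, a ligand that induces hepcidin (−1.07). Hemojuvelin (HFE2), a co-receptor needed for hepcidin expression, was negative in all 4 pairs, from −0.95 to −0.05 (−0.40, SE 0.30), and STEAP3, a ferrireductase, passed the p threshold at a log2 FC of −0.53 (SE 0.17), under the fold threshold. With all pairs, TF and ferritin heavy chain (FTH1) were on the IGF1 side, at 0.50 (SE 0.25) and 0.32 (SE 0.17), with neither called.

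The growth hormone and IGF genes lay on both sides. IGF1, the growth factor that liver secretes under growth hormone, had log2 FC of 1.91 in B5F125, 0.85 in B5F75, 0.57 in B4F125 and 0.30 in B4F75 (0.91, SE 0.27, adjusted p = 0.801). IGFBP2, a binding protein that is known to be high when growth hormone action is low, ran the other way, with −1.65 in B5F125, −0.26 in B5F75, −0.78 in B4F125 and −2.15 in B4F75 (−1.21, SE 0.34, adjusted p = 0.801). All 4 pairs kept the sign in both genes, but the order of the pairs differed, as the B4F75 pair was the smallest for IGF1 and the largest for IGFBP2. The direct array of B5F75 read 1.14 for IGFBP2, and with the 4 direct arrays only IGFBP2 was −0.96 and not called. IGF1 was not called without B5F125 (0.57), B5F75 (0.92) or B4F125 (1.02), and IGFBP2 not without B5F125 (−1.06) or B4F75 (−0.90).

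IGF1 and IGFBP2 were the only DEG among 19 genes of the axis, beside 1.01% of all genes. Of the 19, 9 were positive (median −0.09), beside 6259 of 13410 genes in all. These counts depended on the B4F75 pair. With it left out, IGF1 (1.11), IGFALS (1.42) and IGFBP3 (0.84) were called, beside 212 of 13347 genes in all. The median was then 0.06, with 11 of 19 positive. The growth hormone receptor (GHR) was 0.19 (SE 0.35) and differed in sign among the pairs, with 0.57 in B5F125 and −0.22 in B5F75. IGFALS, the subunit that keeps IGF1 in its large circulating complex, was 2.08 in B5F125, 1.62 in B5F75, 0.58 in B4F125 and −2.57 in B4F75, so its fitted value of 0.43 (SE 0.61) hid the widest spread of the 12 genes known to change at calving. IGFBP3, the main carrier of IGF1, was 0.57 (SE 0.25, adjusted p = 0.983), and IGFBP5 and IGFBP6 were negative in all 4 pairs, at −0.70 (SE 0.24) and −0.38 (SE 0.19). SOCS2, a feedback inhibitor of the growth hormone receptor, was 0.43 (SE 0.41).

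Among 17 genes of liver hormones (hepatokines), HAMP and LECT2 were DEG. LECT2, a secreted chemotactic protein, was 1.03 in B5F125, 0.70 in B5F75, 0.29 in B4F125 and 0.78 in B4F75 (0.70, SE 0.20, adjusted p = 0.801), and was not called without B5F125 (0.59), B5F75 (0.70) or B4F75 (0.68). FETUB, a relative of fetuin A, was also positive in all 4 pairs (1.06, SE 0.58). INHBE, the activin E subunit, was negative in each pair, between −0.71 in B4F125 and −2.94 in B4F75 (−1.38, SE 0.63, adjusted p = 0.99). FGF21, the fasting hormone of liver, was measured on 11 arrays and had −0.64 in B5F125, 0.48 in B4F125 and −1.93 in B4F75 (−0.70, SE 0.57), with no value in B5F75.

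**Figure D3:**
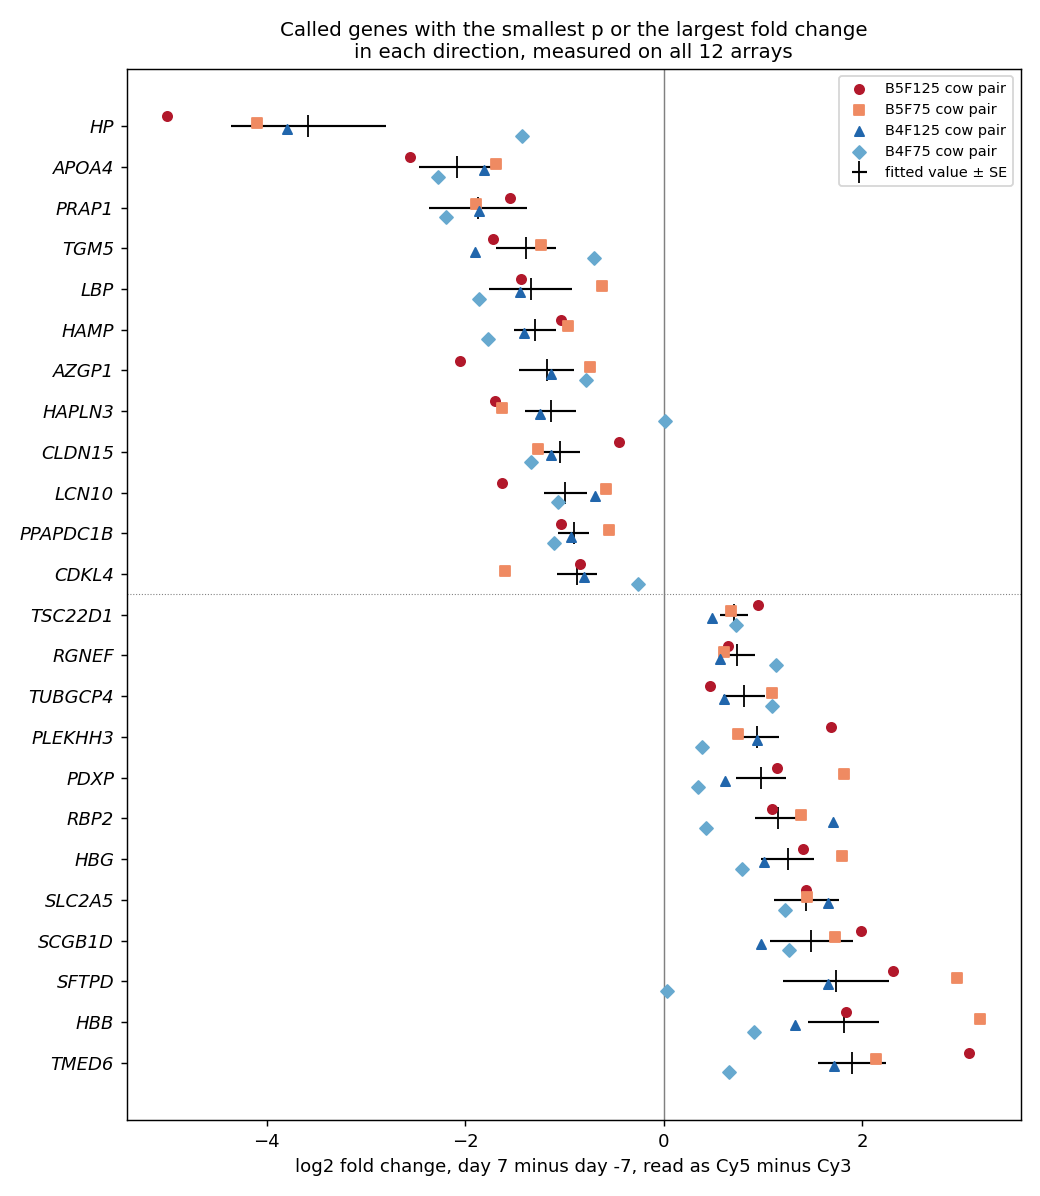
Log2 FC (day 7 minus day −7, Cy5 minus Cy3) of the DEG with the smallest p or the largest fold change on each side, with the fitted value and SE in black and the 4 cow pairs as coloured points. HP has the widest negative values, SLC2A5 the pairs closest together (1.23 to 1.66, although 2 of its direct arrays were below 0), and HAPLN3 and SFTPD have a B4F75 pair near 0.

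In glucose synthesis, pyruvate carboxylase (PC), which turns pyruvate into oxaloacetate at the entry of gluconeogenesis, was −1.53 in B5F125, −0.45 in B5F75, −0.73 in B4F125 and −1.72 in B4F75 (−1.11, SE 0.30, adjusted p = 0.739). Both lactate dehydrogenase subunits were DEG on the same side. LDHB had −1.05 in B5F125, −0.39 in B5F75, −1.05 in B4F125 and −1.25 in B4F75 (−0.94, SE 0.22, adjusted p = 0.532), and LDHA −1.59, −1.34, −1.16 and −0.62 in the same order (−1.18, SE 0.39, adjusted p = 0.876). The 3 genes were negative in every pair. PC was not called without B5F125 (−0.97) or B4F75 (−0.90), LDHB not without B5F125 (−0.90), and LDHA not without B5F125 (−1.04), B5F75 (−1.12) or B4F125 (−1.18).

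Over the 22 genes of gluconeogenesis and lactate use, these 3 were the only DEG, beside 1.01% of all genes. Of the 22, 16 were negative, beside 7151 of 13410 genes in all, and the median was −0.17. PCK1, the cytosolic enzyme that draws oxaloacetate into glucose synthesis, was −0.28 (SE 0.26), its mitochondrial form PCK2 0.11 (SE 0.24) and G6PC, the last step, 0.14 (SE 0.23). The control transcription factor FOXO1 stood apart, positive in all 4 pairs (0.45, SE 0.17, adjusted p = 0.896). The list depended on the B4F75 pair: the list median was −0.73 in that pair and between −0.23 and 0.11 in the others, and without it the fitted median was −0.03 with 11 of 22 genes positive. None of 9 genes of propionate entry, 12 of glycogen or 18 of glycolysis was a DEG.

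In fatty acid oxidation, CPT1B, the muscle-type carnitine palmitoyltransferase at the mitochondrial entry, was the only DEG of 25 genes. It had −1.17 in B5F125, −1.12 in B5F75, −0.75 in B4F125 and −0.71 in B4F75 (−0.93, SE 0.24, adjusted p = 0.704). The call was kept without each pair in turn, but its 3 probes differed widely, from −1.44 to −0.10. The liver form CPT1A was 0.01 (SE 0.16), with pairs between −0.25 and 0.24. PDK4, the kinase that spares pyruvate from oxidation, was on the IGF1 side in all 4 pairs, at 0.06 to 0.85 (0.37, SE 0.21). Although 19 of the 25 genes were negative, the list median was only −0.08, and without the B4F75 pair it was 0.01 with 13 positive.

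Of 22 genes of PPARA, the fatty acid sensor of liver, and its targets, 19 were negative (median −0.21) and CPT1B was the only DEG. Every pair was negative in 6 of 21, beside 6.68% of all genes, which besides CPT1B were ANGPTL4, PLIN2, ACSL1, G0S2 and TXNIP. PLIN2, the coat protein of lipid droplets, had −1.02 in B5F125, −0.84 in B5F75, −0.25 in B4F125 and −0.69 in B4F75 (−0.70, SE 0.34), and G0S2, an inhibitor of triglyceride lipase, −0.85 (SE 0.45). Here the median kept its sign in all 4 pairs, between −0.27 and −0.11, and was −0.18 without B4F75. PPARA itself was −0.08 (SE 0.22) and RXRA, its dimer partner, −0.24 (SE 0.19). None of the 8 ketogenesis genes was a DEG (median −0.07).

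Among 30 genes of fatty acid and triglyceride synthesis, ELOVL5, an elongase of polyunsaturated fatty acids, was the only DEG. It was negative, at −1.82 in B5F125, −1.77 in B5F75, −0.78 in B4F125 and −0.26 in B4F75 (−1.16, SE 0.34, adjusted p = 0.801), with the BCS5 pairs larger than the BCS4 pairs, and was not called without B5F125 (−0.93) or B5F75 (−0.95). Acetyl-CoA carboxylase (ACACA) and fatty acid synthase (FASN) were −0.45 (SE 0.31) and −0.35 (SE 0.27), and the list median of −0.03 was next to that of all genes.

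Apolipoproteins split. APOA4, an apolipoprotein of triglyceride-rich particles, had log2 FC of −2.55 in B5F125, −1.68 in B5F75, −1.81 in B4F125 and −2.27 in B4F75, and its fitted value of −2.08 (SE 0.38, adjusted p = 0.406) was the second largest in size among DEG on all 12 arrays. The pairs lay close together, and APOA4 was called without each pair in turn. SCARB1, the receptor for high-density lipoprotein, was −0.80 (SE 0.26, adjusted p = 0.876), but its B5F75 pair was at −0.02, and it was not called without B5F125 (−0.76), B4F125 (−0.76) or B4F75 (−0.63). With APOA1, these were the 3 DEG of 22 lipoprotein genes, beside 1.01% of all genes. Of the 22, 13 were negative (median −0.14), beside 7151 of 13410 genes in all. The core of the particle, APOB, was 0.07 (SE 0.20), and MTTP, which loads it with lipid, was −0.16 (SE 0.18). APOH was positive in all 4 pairs (0.49, SE 0.21).

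Of the pathway lists described here, cholesterol synthesis had the most negative median, at −0.47 over 25 genes, of which 23 were negative. FDPS, which makes farnesyl diphosphate, was a DEG, with −1.01 in B5F125, −0.54 in B5F75, −0.23 in B4F125 and −1.20 in B4F75 (−0.74, SE 0.24, adjusted p = 0.876). In 10 of 25 genes, among them MVK, IDI1, FDPS, SQLE, LSS, CYP51A1, MSMO1, NSDHL and DHCR7, all 4 pairs were negative, beside 6.68% of all genes, and in 0 were all 4 positive. Squalene epoxidase (SQLE) and the methylsterol oxidase MSMO1 came close to the threshold (−0.59, SE 0.20, adjusted p = 0.883, and −0.67, SE 0.23, adjusted p = 0.884).

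The list was not alike in every pair. Its median was −0.51 in B5F125, 0.03 in B5F75, −0.23 in B4F125 and −0.70 in B4F75, so the B5F75 pair did not share it, although HSD17B7, FDPS and MSMO1 were negative there too. Without the B4F75 pair the fitted median was −0.27, with 7 of 25 genes positive, and 12 of 25 were negative in the other 3 pairs, beside 12.9% of all genes. The regulators SREBF2, the transcription factor of the pathway, and its escort SCAP were near 0 (0.04, SE 0.17, and −0.07, SE 0.14). FDPS was not called without B5F125 (−0.66), B5F75 (−0.81) or B4F75 (−0.59).

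**Figure D4:**
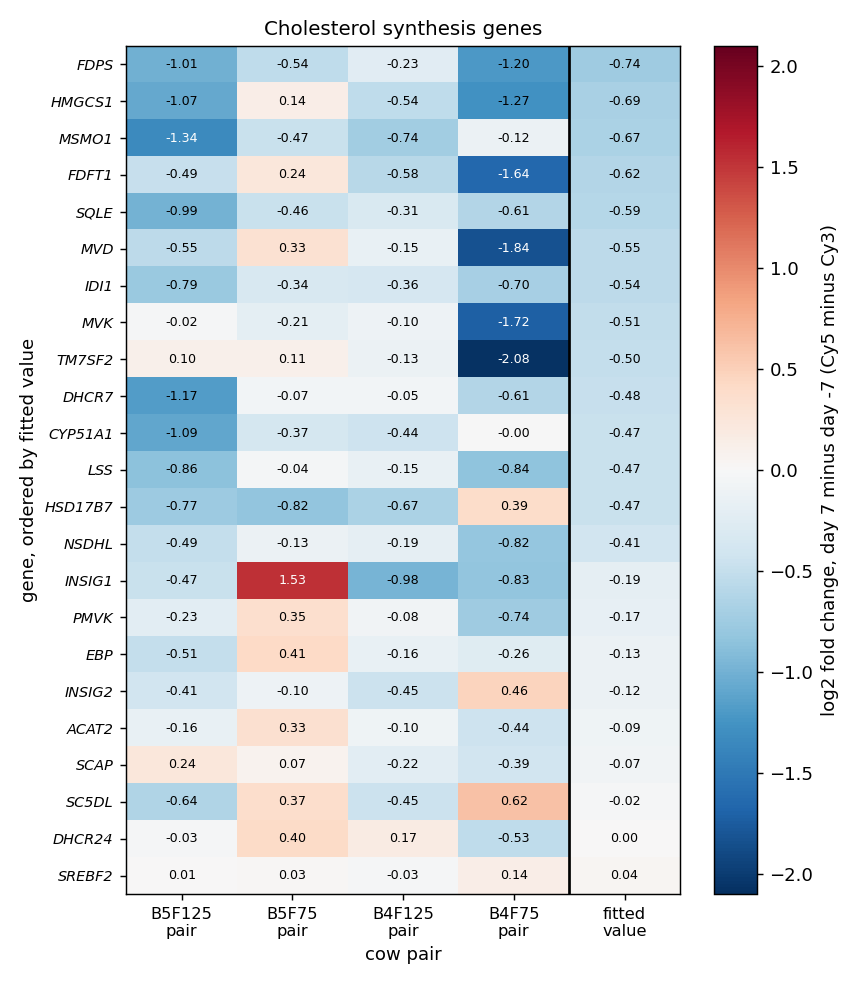
Log2 FC (day 7 minus day −7, Cy5 minus Cy3) of 23 of the 25 cholesterol synthesis genes in each cow pair and as fitted, in order of the fitted value; blue is negative and red positive. Most cells are blue in B5F125, B4F125 and B4F75, while B5F75 holds 1.53 for INSIG1 and has a list median of 0.03.

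Of 17 bile acid genes CYP7A1 was the only DEG. CYP7A1, the rate-limiting enzyme of bile acid synthesis from cholesterol, was 0.19 in B5F125 but −2.05 in B5F75, −1.61 in B4F125 and −1.78 in B4F75 (−1.31, SE 0.40, adjusted p = 0.801). The B5F125 pair thus stood apart in sign, and CYP7A1 was not called without B5F75 (−1.06), B4F125 (−1.21) or B4F75 (−1.16). CYP8B1, the 12-alpha-hydroxylase, was −0.29 (SE 0.24), and the export pumps ABCG5 and ABCC2 were positive in all 4 pairs (0.47, SE 0.35, and 0.50, SE 0.27). The list median was 0.02.

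In amino acid metabolism, SHMT2, the mitochondrial enzyme that passes serine carbon to folate, was the only DEG of 18 methionine and one-carbon genes, with −0.80 in B5F125, −0.27 in B5F75, −0.49 in B4F125 and −1.33 in B4F75 (−0.72, SE 0.21, adjusted p = 0.801). It was not called without B5F125 (−0.70) or B4F75 (−0.52). CSAD and PEMT, of taurine and phosphatidylcholine synthesis, were negative in all pairs, whereas MAT1A and GNMT differed in sign (−0.15, SE 0.35, and −0.26, SE 0.34). The median of the list was −0.20, but 0.00 without B4F75. None of the 11 urea cycle genes was called: OTC, which makes citrulline, was positive in each pair (0.72, SE 0.27, adjusted p = 0.896) and CPS1, the entry enzyme, was 0.29 (SE 0.25). The pair medians of this list lay between 0.82 in B5F75 and −0.66 in B4F75, the widest range among the metabolic lists.

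Genes of protein folding in the endoplasmic reticulum were mostly negative (17 of 21, median −0.20) with 0 DEG. The chaperones HSPA5 and HSP90B1 were −0.35 (SE 0.48) and −0.18 (SE 0.24), and XBP1, the transcription factor that raises folding capacity, was negative in every pair, from −0.98 to −0.35 (−0.57, SE 0.30). In cell cycle genes the pairs went apart. The median was −0.44 in B5F75 and 0.95 in B4F75, with RRM2 at −1.83 and 3.57 in these pairs. Cyclin E1 (CCNE1), measured on 11 arrays, was a positive DEG (1.26, SE 0.26, adjusted p = 0.439), and cyclin D1 (CCND1) a negative one, at −0.69 in B5F125, −0.90 in B5F75, −0.80 in B4F125 and −0.20 in B4F75 (−0.65, SE 0.18, adjusted p = 0.739). CCND1 was not called without B5F125 (−0.63), B5F75 (−0.56) or B4F125 (−0.60). Ribosomal proteins (71) and oxidative phosphorylation subunits (53) held 0 DEG, with medians of 0.09 and −0.03.

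Haemoglobin beta (HBB) was 1.83 in B5F125, 3.19 in B5F75, 1.32 in B4F125 and 0.92 in B4F75 (1.82, SE 0.36, adjusted p = 0.408), and HBG, a gamma-type globin, 1.41, 1.80, 1.01 and 0.79 in the same order (1.25, SE 0.27, adjusted p = 0.439). Both were positive in all pairs in the same order of size. HBB was called without each pair, HBG not without B5F75 (1.07). The 3 probes of HBG that were fitted ran from 0.29 to 1.98. Globins of a cluster share sequence, so their probes may read each other. The alpha globin HBA was 0.15 (SE 0.26), with 0.67 in B5F125 and −0.30 in B4F75. The erythroid list had 7 of 15 genes tested, 5 positive and 1 called. HBB and HBG lay on the side opposite to HP.

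The remaining DEG with the smallest p or the largest fold change had few links to the lists. TMED6, a membrane protein of the early secretory pathway, was the positive gene with the smallest p, at 3.08 in B5F125, 2.14 in B5F75, 1.72 in B4F125 and 0.66 in B4F75 (1.90, SE 0.34, adjusted p = 0.406). SLC2A5, the fructose transporter, was 1.43, 1.45, 1.66 and 1.23 in the same order (1.44, SE 0.32, adjusted p = 0.484), which is the narrowest range of the positive genes in the plot of lead genes. Its direct arrays did not share this, with −0.03 in B5F125, −0.69 in B5F75, 2.24 in B4F125 and 1.84 in B4F75 (mean 0.84), and it was the 1 named DEG with 2 such arrays on the other side. RBP2, a cellular retinol-binding protein, was 1.15 (SE 0.23, adjusted p = 0.418) with pairs of 0.42 to 1.71. TSC22D1, a leucine zipper protein, was 0.71 (SE 0.14) with pairs of 0.49 to 0.95. SFTPD, the collectin surfactant protein D, was 2.31 in B5F125 and 2.95 in B5F75, but 1.66 in B4F125 and 0.03 in B4F75 (1.74, SE 0.54, adjusted p = 0.801), and was not called without B5F125 (1.55), B5F75 (1.33) or B4F125 (1.77). SCGB1D, a secretoglobin, was 0.98 to 1.99 over the pairs (1.49, SE 0.42, adjusted p = 0.801) and not called without B5F75 (1.41) or B4F75 (1.57).

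Further positive DEG were PLEKHH3 (0.94, SE 0.22), PDXP (0.98, SE 0.26), a phosphatase of pyridoxal phosphate, RGNEF (0.74, SE 0.18), a guanine nucleotide exchange factor, and TUBGCP4 (0.81, SE 0.21), a subunit of the gamma-tubulin complex. All 4 were positive in each pair. The call of TUBGCP4 rested on its probes being averaged, since its 2 probes read 0.02 and 1.86, and the only RGNEF probe on 9 or more arrays read 0.34. Without 1 pair each, PLEKHH3 (0.94 without B4F125) and TUBGCP4 (0.72 without B4F75) were not called, nor was PDXP without B5F125 (0.93) or B5F75 (0.70).

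On the negative side, PRAP1, a proline-rich secreted protein, was −1.55 in B5F125, −1.89 in B5F75, −1.86 in B4F125 and −2.19 in B4F75 (−1.87, SE 0.49, adjusted p = 0.729). These pairs lay close together, although the array of the B5F125 pair that holds 7 and −7 d directly read 1.05 before the mean of its pair was subtracted. With the cow pair as a fixed block PRAP1 was the 1 gene past the adjustment (adjusted p = 0.0213 with limma), against 0.729 with a random block. It was not called without B4F125 (−1.88) or B4F75 (−1.77) in the fit with a random block. PPAPDC1B, a phospholipid phosphatase, had the second smallest p of all genes (−0.91, SE 0.16, adjusted p = 0.406, pairs −1.11 to −0.55), and CLDN15, a tight junction claudin, was −1.05 (SE 0.20, adjusted p = 0.408, pairs −1.33 to −0.45). Both were called without each pair in turn. TGM5, a transglutaminase (−1.39, SE 0.30), AZGP1, a zinc-binding glycoprotein linked to fat mobilisation (−1.18, SE 0.28), and LCN10, a lipocalin (−0.99, SE 0.22), were negative in every pair and likewise called without each. HAPLN3, a link protein of hyaluronan, was −1.14 (SE 0.26) but 0.02 in B4F75, and was not called without B5F125 (−0.95) or B4F125 (−1.10). The kinase CDKL4 (−0.87, SE 0.20) was not called without B5F75 (−0.63).

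**Figure D5:**
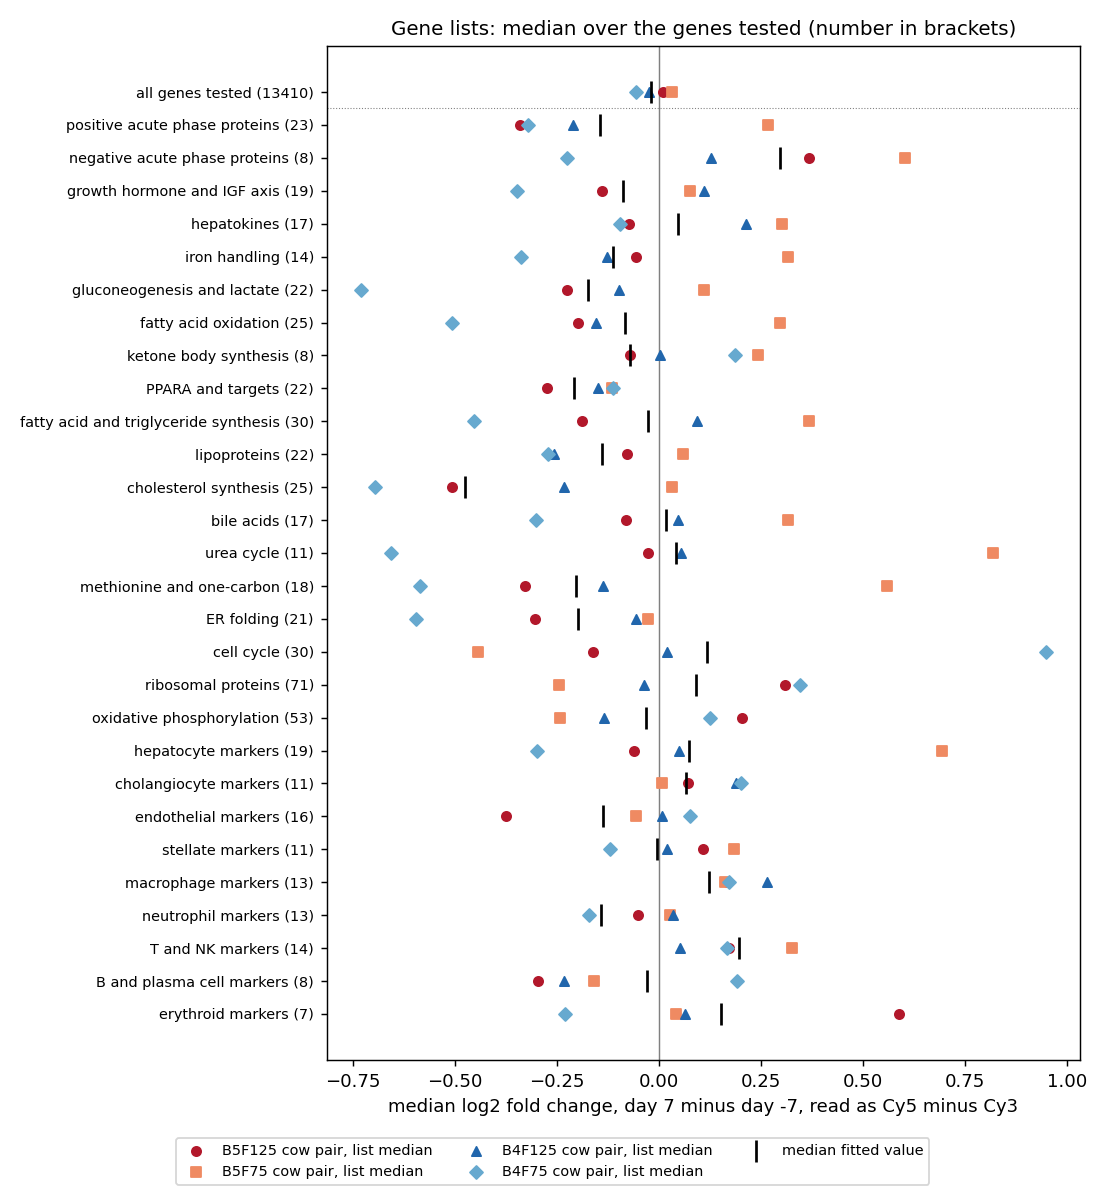
Median log2 FC (day 7 minus day −7, Cy5 minus Cy3) of gene lists in each cow pair (coloured points) and of the fitted values (black bars), with the number of genes tested in brackets. The B5F75 and B4F75 pairs lie at opposite ends for many metabolic lists, such as the urea cycle (0.82 and −0.66), while cholesterol synthesis has the most negative fitted median (−0.47).

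Few markers of the cell types in liver were DEG. Among hepatocyte markers, 2 of 19 were DEG, beside 1.01% of all genes. They were APOA1 and ASGR2, the asialoglycoprotein receptor subunit, at −0.79 (SE 0.25, adjusted p = 0.876). Of the 19, 11 were positive, beside 6259 of 13410 genes in all. The median was 0.07, between 0.69 in B5F75 and −0.30 in B4F75. ASGR2 was not called without B5F125 (−0.72), B4F125 (−0.83) or B4F75 (−0.60). When B4F75 was left out, neither APOA1 nor ASGR2 was called. The called markers were then APOH (0.62), TF (0.76) and CYP2E1 (0.79), beside 212 of 13347 genes in all. Of the 19 markers, 15 were then positive (median 0.18). No DEG was found among 11 cholangiocyte, 16 endothelial, 11 stellate, 13 macrophage, 13 neutrophil, 14 T and NK cell, or 8 B and plasma cell markers tested. Of the endothelial markers 13 of 16 were negative (median −0.14), and of the T and NK markers 12 of 14 were positive (0.20), with the defining genes CD3E and CD2 not among those tested. The macrophage median was positive in all 4 pairs, between 0.16 and 0.27 (fitted 0.12), with CD68 and TIMD4 positive in each. The neutrophil proteins S100A8 and S100A9 were −0.47 (SE 0.49) and −0.56 (SE 0.34), negative in B5F75 and B4F125 and positive in B4F75. Without the B4F75 pair 2 of the 13 neutrophil markers were called, beside 212 of 13347 genes in all. They were S100A9 at −1.11 and MPO, the granule peroxidase, at 0.79. The part of these cell types in the results was not tested.

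The day 28 samples of the same cow pairs enter the fit, and the comparison of 28 with −7 d shares the −7 d samples, so both changes are given side by side without a test between them. HP was −3.58 at 7 d and −1.90 at 28 d against −7 d. APOA4 −2.08 and −1.48, PRAP1 −1.87 and −1.88, PC −1.11 and −0.61, and IGFBP2 −1.21 and −1.25 at these days. On the positive side HBB was 1.82 and 1.80, TMED6 1.90 and 1.29, IGF1 0.91 and 0.51, and SCGB1D 1.49 and 0.43. All kept their sign, and those of HBB, PRAP1 and IGFBP2 were almost equal on both days. SAA3 was −1.17 at 7 d and −0.06 at 28 d, and ELOVL5 −1.16 and −0.26.

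Whether the day change differed with BCS or feeding was fitted on the same arrays, with 2 cow pairs against 2. The change differed between BCS5 and BCS4 in 111 genes at the same thresholds (0.828% of 13410; 25 positive and 86 negative as BCS5 minus BCS4), with 535 genes at an unadjusted p under 0.05 and 0 at an adjusted p under 0.05 (limma, smallest 0.0988). Between F125 and F75 it differed in 109 (0.813%; 64 positive and 45 negative as F125 minus F75), with 601 at an unadjusted p under 0.05 and 0 after adjustment (smallest 0.158). With the sign of the ratios turned, the positive and negative numbers of both comparisons change places. Both shares were below the 1.01% of the pooled comparison, and both numbers at an unadjusted p under 0.05 were below its 669. Neither number exceeds what that threshold passes by chance alone. The comparisons differ in precision: for HAMP the SE was 0.21 in the pooled value, but 0.40 in the BCS and 0.40 in the feeding difference. The counts therefore do not rank the size of the changes. The counts moved with single pairs, and the BCS comparison gave 66 genes without B5F75 and 765 without B4F125, the feeding comparison 61 without B5F125 and 731 without B5F75. With 1 pair per treatment, a treatment and its 2 cows cannot be told apart. On the arrays of 7 against −7 d, day 7 was in Cy5 in both BCS4 pairs and in Cy3 in both BCS5 pairs. From those arrays alone dye and BCS cannot be told apart, which also bears on genes with incomplete pairs.

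Of the 3 genes with the smallest p in the BCS comparison, MAMDC2, an extracellular matrix protein, was measured on all arrays. It was −0.61 in B5F125 and −0.71 in B5F75, against 2.00 in B4F125 and 2.47 in B4F75 (difference −2.89, SE 0.47, adjusted p = 0.461 with limma). MXRA5, a matrix protein measured on 11 arrays, was −0.77 in B5F125, against 1.00 in B4F125 and 1.09 in B4F75 (difference −1.94, SE 0.32). The open reading frame C18H16orf46, on 10 arrays, had pair values only in B4F125 (1.39) and B4F75 (1.28), so its difference of −4.18 (SE 0.45) rested on a fit with incomplete BCS5 pairs. In the feeding comparison CLDN6, a claudin, was measured on 10 arrays, with −1.54 in B4F125 against 1.92 in B4F75 and no BCS5 pair value (difference −3.64, SE 0.41). TAF6L, a subunit of histone acetyltransferase complexes, also on 10 arrays, was 1.34 in B4F125 against −1.67 in B5F75 (difference 2.87, SE 0.52). LOC52254, whose number may lack a digit in the files, was −1.60 in B5F125 and −1.72 in B4F125, against 0.91 in B5F75 and 0.23 in B4F75 (difference −2.23, SE 0.47).

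Genes with a value in all 4 pairs were looked at further after the values were seen. DENND2A, a Rab exchange factor, was −2.46 in B5F125 and −1.88 in B5F75, against 0.04 in B4F125 and 0.45 in B4F75 (difference −2.42, SE 0.50). AJAP1, an adherens junction protein, was −1.31 in B5F125 and −0.56 in B4F125, against 2.46 in B5F75 and 0.77 in B4F75 (difference −2.55, SE 0.54). JMJD6, a hydroxylase of splicing factors, was 0.88 in B5F125 and 0.82 in B4F125, against −0.40 in B5F75 and −0.66 in B4F75 (difference 1.38, SE 0.31). Choosing genes by p after the values were seen favours pairs that lie apart, so these values are a description. None of these genes had an adjusted p under 0.05 (limma).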

How the data were processed

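The authors hybridised liver RNA to 48 two-colour Agilent bovine arrays and deposited log2 ratios per spot, with excluded spots left blank. The ratios had array medians of 0.12 to 0.39 and were not centred. The numerator dye, slide and scan batches are not given in the sources used here. Another 48 value columns of the annotated table fit no label of a sample and were left aside. Of 43803 spots, 33502 had a usable gene name (16306 genes). The files' names lack the digit 0, which was restored for 461 names through a RefSeq gene table of ARS-UCD2.0, used for names only. Names with several readings (298) or turned into dates (24) were left out.

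Each array was centred on its median and probes were averaged per gene. Genes on at least 9 of the 12 arrays were fitted with limma 3.58.1 (R 4.3.3, statmod 1.5.0), with 3 day means, a dye term and the cow pairs as random blocks (block correlation 0.092); p-values were adjusted by Benjamini-Hochberg over all genes tested. Tables were made with Python 3.11.15 and pandas 2.3.3. Depth has no counterpart on arrays, and their number limits the precision: with 4 pairs an exact sign-flip test of a single gene cannot give a p below 0.125. The pairs share no cow, and nothing here measures cows beyond these 8 animals. SE and p-values come from the residuals over the 12 arrays, moderated with those of other genes. They therefore do not measure the spread of the 4 pair values of a gene. The SD of the pair values was 0.18 in SLC2A5 and 2.10 in IGFALS, beside SE of 0.32 and 0.61. Simulated data were used to check the fit.

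The text names the 12 sign-check genes, the 10 DEG with the smallest p and the 5 with the largest fold change on each side (on all 12 arrays, names other than LOC numbers), up to 4 DEG of each list described or else its first 2 measured members, and the 3 DEG with the smallest p of each treatment difference. Some genes that this rule covers are not reported here by name, though the list counts include them. The genes, lists and comparison were chosen with earlier results of these data known. Alternatives changed the centring, scaling, array minimum, block, dye term, moderation, probes, arrays used and each cow pair. Array weights and the lists without the B4F75 pair were added after seeing the data.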

Additional observations from a re-analysis of the deposited data

Results flagged for a closer look

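The day change differed between treatments in 6 named genes at the unadjusted threshold, and in none after adjustment. As BCS5 minus BCS4, the difference was −4.18 for C18H16orf46 (adjusted p = 0.0988 with limma), −2.89 for MAMDC2 and −1.94 for MXRA5 (both 0.461). As F125 minus F75, it was −3.64 for CLDN6 (adjusted p = 0.158 with limma), 2.87 for TAF6L and −2.23 for LOC52254 (both 0.98). These genes were named for that difference, so the values are a description.

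By Dixon's gap test, which sets the distance of the outermost value to its neighbour against the whole range, 1 pair of RGNEF lay apart, with 1.13 in B4F75 and 0.57 to 0.65 in the other pairs. Of 63 named genes with 4 pair values, RGNEF alone passed this test, and genes with a wider spread such as IGFALS and CYP7A1 did not. Chance alone is known to mark about 1 group in 20.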

How the results depend on the processing

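The direction is the main limit: read as Cy3 minus Cy5, 10 of the 12 sign-check genes lay on the known side, against 2 as printed. Only 4 of the 12 were DEG. The count gives the same weight to values within their SE of 0, such as GHR among the 10 (0.19, SE 0.35) and CPT1A among the 2 (0.01, SE 0.16). The 135 DEG became 62 without moderation, 0 at an adjusted p under 0.05, 225 with all 48 arrays, 205 with the 4 direct arrays, 262 with array weights and 85 to 212 when 1 cow pair was left out (85 without B5F125, 212 without B4F75). Without centring 40 of 160 DEG were positive (120 with the sign turned), against 58 of 135 (77 with the sign turned), and the median of all genes was −0.08. The replicate numbers in the labels pair no samples across days, and the cow pair served as the block: with no replicate block there were 109 DEG, and with a fixed replicate block 136. The BCS difference (111 genes) gave 56 on all 12 arrays, 69 without moderation, 0 after adjustment and 66 to 765 with 1 pair left out. The feeding difference (109 genes) gave 70 with no replicate block, 0 after adjustment and 61 to 731 with 1 pair left out.

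None of the 40 named DEG passed an adjusted p under 0.05. Under the other settings, up to 16 for a gene, all 40 kept their sign in each one run, and 7 were called in all 16. For a gene measured on every array, the kept sign was partly fixed in advance. The array minimum, block, dye term, moderation and use of all 48 arrays alter its p but not its value, as in APOA1 (−0.845 under each). Leaving out 1 pair cannot turn its sign where all 4 pairs share it. The sign could turn with the centring, scaling, single probes, direct arrays or array weights, and did not. With the 4 direct arrays only, 17 of the 40 were called. Of 639 values of these genes under all the other settings run, 517 passed the threshold and 122 did not. Among 29 named genes that were not DEG, 11 turned sign in some setting. With the 4 direct arrays C18H16orf46 was −0.75, GNMT 0.021, HBA −0.27, MAT1A 0.44 and PPARA 0.070. With scaled arrays CLDN6 was −0.16 and TAF6L 0.085, and with array weights −0.49 and 0.24. CPT1A was −0.053 without centring and −0.12 by single probe. With 1 pair left out, the value lay for CLDN6 between −1.12 and 1.635, for CPT1A between −0.069 and 0.095, for CYP8B1 between −0.535 and 0.021, for GNMT between −0.585 and 0.13, for HBA between −0.021 and 0.30, for IGFALS between −0.13 and 1.42, for MAT1A between −0.42 and 0.005, for MXRA5 between −0.10 and 0.65, for PPARA between −0.34 and 0.050 and for TAF6L between −1.28 and 0.71. The cause of these changes was not tested.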

Other observations

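Other gene lists held few DEG or none. Ribosomal proteins were positive in 54 of 71 genes (median 0.09), but with medians of 0.31 in B5F125 and −0.24 in B5F75. Among 33 antioxidant and metal-binding genes, 16 were positive and 17 negative, the median was −0.03 against −0.02 over all genes, and 0 were DEG. Without B4F75 1 was called (MT2A at −0.60), beside 212 of 13347 genes in all. In 5 of the 33 (GPX3, GPX4, PRDX1, HMOX1 and SRXN1) all 4 pairs were negative, beside 6.68% of all genes. GPX3, the plasma glutathione peroxidase, had the most negative value of that list at −1.56. Cytochrome P450 genes had a median of 0.19 with 0 of 19 called, and pair medians of 0.55 in B5F75 and −0.63 in B4F75. That count rested on the B4F75 pair. Without it 2 of 19 were called, CYP2E1 at 0.79 and CYP26A1 at 1.73, beside 212 of 13347 genes in all. In the other 3 pairs 7 of 18 were positive, beside 13.7% of all genes.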
